A study of Danio rerio with 3 samples.

Results

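The comparison was between RNA of whole zebrafish embryos after Z-REX with HNE and RNA of non-treated embryos, 1 library each. Its members are the genes whose mean over the 3 libraries of the series reached 10 counts, which left 18563 of 31950 genes. The third library came from embryos after Z-REX with HDE, and its counts are given beside those of the comparison. All embryos had received about 2 nl of mRNA for Halo-TEV-Keap1 at the 1–4-cell stage and were kept at 28.5°C, so the fusion protein was meant to be present in the non-treated embryos too. Z-REX places an electrophile on 1 chosen protein: a photocaged precursor docks to the Halo domain, and light then frees the electrophile beside Keap1. For HNE, embryos took up 1 µM of the precursor Ht-preHNE in the dark for 30 h, were rinsed, were lit at 365 nm and 0.5 mW per cm2 for 3 min, and were lysed 1.5 h later. The conditions stated for HDE are the same except that no precursor dose is given for it. The labels deposited with the libraries number the Keap protein differently for each, and this was read as a slip in numbering. The study's supplementary description gives the sequenced embryos as Tg(lyz:TagRFP), a reporter line in which the lysozyme promoter drives a red fluorescent protein in neutrophils. For the non-treated embryos the labels record no precursor and no light step, and their light history is not given. Per the paper's methods, injected fish were grown in a daily cycle of light and dark, whereas Z-REX embryos were kept in the dark for 30 h. Effects of precursor, handling, light, dark and electrophile therefore cannot be told apart here. Whether the embryo samples were at the same developmental stage was not tested. In RNA of whole embryos, fewer cells of a type and less RNA per cell cannot be told apart either.

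HNE, hydroxynonenal, is a reactive aldehyde that forms when membrane lipids are oxidized. It modifies cysteines of Keap1, the protein that otherwise sends the transcription factor Nrf2 to the proteasome, and Nrf2 then switches on genes for conjugating, reducing and exporting reactive molecules. Cells of zebrafish embryos also sense light directly: period and cryptochrome genes of the circadian clock, and photolyases that repair light-damaged DNA, are known to be induced by light.

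Counts are the authors' reads per gene, rounded to whole numbers, and their totals were 17996111 (non-treated), 17704410 (HNE) and 15084294 (HDE). All ratios below are HNE over non-treated after TMM scaling, with an exact 95% interval that covers counting error only. A gene is said to differ, or is called higher or lower, at an adjusted p under 0.05 in an exact binomial test of its reads and a change of at least 1.5-fold. That test compares 2 libraries, not 2 conditions, and with 1 library per condition no difference could be set against a spread between replicates. Of the 18563 genes, 324 were higher after HNE (1.75%) and 300 were lower (1.62%), while 90.5% of all genes lay within 1.5-fold and the median log2 ratio was 0.0037. Few of these differences were large: 152 of the higher and 116 of the lower genes reached 2-fold, and 56 and 41 reached 3-fold. If embryo samples of a condition are assumed to differ from each other with a biological coefficient of variation of 0.1, 76 genes were called higher (0.409%) and 73 lower (0.393%) by edgeR's exact test. Each group below is read against these shares. Of the 10 genes the study tabulated as immune or Nrf2-driven, 6 were among the higher and 4 among the lower genes, and they are not described again here. The HDE value lay on the HNE side of the non-treated value for 301 of the 324 higher and 258 of the 300 lower genes. It was at least 1.5-fold the same way for 185 and 87. Both ratios use the same non-treated library, so an HDE value on the HNE side is not particular to the genes named below.

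Genes were sorted into 35 tissue lists and 43 pathway lists, and the tested genes included those of lens, muscle, blood, liver and skin that whole embryos should express. These hold 2426 of the tested genes, or 13.1%, and 18.5% of the genes called higher and 31.7% of those called lower. Because the lists were chosen with earlier results of these data known, these shares only describe the lists and were not tested. Of the lower genes, the lens list holds 24, the macrophage and lipoprotein lists 7 each, and the erythrocyte and shared leukocyte lists 5 each. The heart, liver, neural progenitor and hypoxia lists hold 4 each. Of the higher genes, the light and circadian clock list holds 10, and the DNA repair and carbonyl and aldehyde lists 5 each. Lists overlap, so some genes are counted in more than 1. No gene was called in 23 of the 78 lists.

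**Figure D1:**
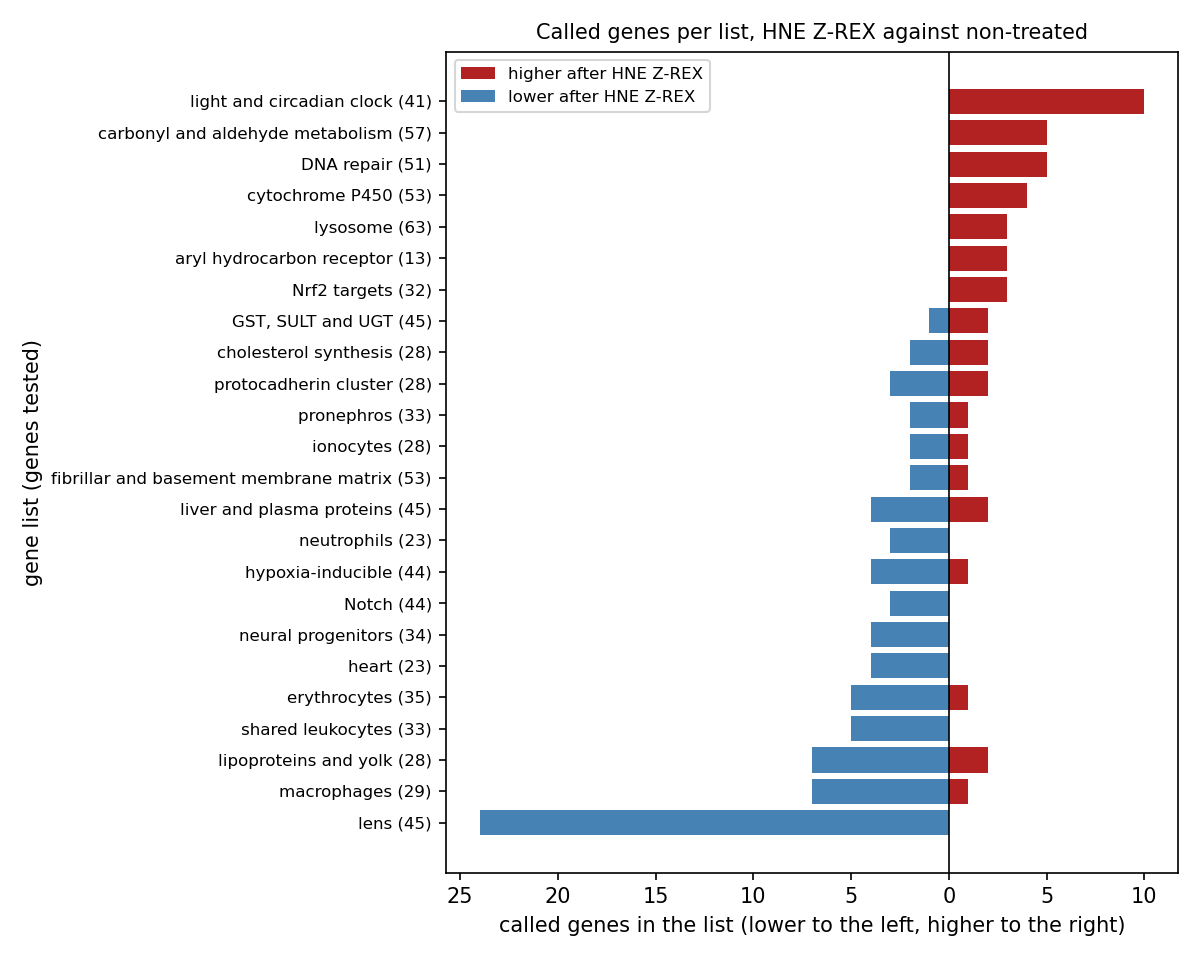
Each bar gives the number of genes of a list called lower (blue, to the left) or higher (red, to the right) after HNE Z-REX, for lists with at least 3 called genes, and the number tested stands in parentheses. The lens bar reaches 24 lower genes of 45, and the clock bar 10 higher genes of 41.

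The light and circadian clock list had the most genes called higher. Of its 41 tested genes, 10 were higher after HNE and none was lower, and its median log2 ratio was 0.28. At the assumed variation of 0.1, 7 genes of the list were called. The period gene *per2*, a clock repressor whose transcription follows light, had 200 counts non-treated, 1245 after HNE and 736 after HDE (ratio 6.28, interval 5.41 to 7.33). Its relatives did not pass the test, with ratios of 1.27 for *per1b* (0.34 on the log2 scale) and 1.101 for *per3*. Among 8 tested cryptochrome genes, whose proteins repress the clock or repair DNA, 4 were higher and 7 had ratios above 1. *cry1a*, a cryptochrome of the clock, had 157 counts non-treated, 815 after HNE and 592 after HDE (ratio 5.24, interval 4.41 to 6.26). *cry2b*, another clock cryptochrome, went from 389 to 1240 counts with 732 after HDE (ratio 3.22, interval 2.87 to 3.62). *cry-dash*, a photolyase relative, had 177, 375 and 368 counts in the non-treated, HNE and HDE libraries, so that for this gene the HNE and HDE counts lay together above the non-treated one.

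Most of the rest are transcription factors that read or feed back on the clock. *tefa*, which binds the D-box element of light-responsive genes, had 884 counts non-treated, 1853 after HNE and 1271 after HDE (ratio 2.12, interval 1.95 to 2.295). *nfil3-6*, a repressor acting on the same element, had far fewer, 17 counts against 48 with 29 after HDE (ratio 2.85, interval 1.61 to 5.29). The wide interval goes with these low counts. *nr1d4b*, of the Rev-erb receptor family, had 17 and 37 counts (ratio 2.197, interval 1.21 to 4.16), with 33 after HDE. *soul5*, a heme-binding gene of the SOUL family, had 13 counts non-treated, 122 after HNE and 38 after HDE (ratio 9.47, interval 5.34 to 18.3). *bhlhe41*, a repressor of clock genes, had 67 counts non-treated, 110 after HNE and 47 after HDE, which placed the HDE library below the non-treated one.

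DNA repair genes overlap this list in *cry5*, a photolyase with 24 counts non-treated, 284 after HNE and 180 after HDE (ratio 11.9, interval 7.87 to 18.96), and in *cry-dash*. Of 51 tested repair genes, 5 were higher and none lower, at a median log2 ratio of 0.06. The other 3 act on damaged bases. *ddb2*, which finds ultraviolet damage in chromatin, had 80 counts non-treated, 304 after HNE and 218 after HDE (ratio 3.84, interval 2.99 to 4.97). *neil1*, a glycosylase that removes oxidized bases, had 260, 481 and 374 counts (ratio 1.87, interval 1.60 to 2.18), and *xpc*, the damage sensor of nucleotide excision repair, had 536, 852 and 665 (ratio 1.60, interval 1.44 to 1.79). Both therefore stood in the order non-treated, HDE, HNE. *ddb2* and *xpc* were also the only genes called among 37 p53 targets, whose median log2 ratio was 0.00.

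Among the 12 largest rises by the rule for named genes, 7 are in no list. *zgc:92137*, which the files give no other name, had 0 counts non-treated, 80 after HNE and 118 after HDE, at least 26.9-fold higher after HNE than a floor of 3 counts in the non-treated library. A pair of genes for RING-finger proteins of the Lon family had *lonrf1l* at 181 counts non-treated, 1530 after HNE and 891 after HDE (ratio 8.53, interval 7.31 to 10.0), and *lonrf1* at 118, 578 and 322 (ratio 4.95, interval 4.05 to 6.08). *crtac1a*, which encodes a secreted cartilage protein, had 16 counts non-treated, 146 after HNE and 88 after HDE (ratio 9.21, interval 5.49 to 16.5). Both Z-REX libraries lay above the non-treated one for these 4 genes, as for most genes called higher. *si:ch73-25i22.2*, with 11 and 68 counts, and *lrrc58a*, with 17 and 79, were sparse. *5_8S_rRNA*, a copy of a ribosomal RNA without a poly(A) tail, had 3 and 50 counts (ratio 16.8, interval 5.44 to 84.3) in libraries that were made from poly(A) RNA, and its reads could come from any copy.

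Genes for the metabolism of foreign compounds were higher in small numbers. In the aryl hydrocarbon receptor list, 3 of 13 tested genes were higher and none lower. *cyp1a*, the oxidase that this receptor induces most typically, had 141 counts non-treated, 930 after HNE and 873 after HDE (ratio 6.66, interval 5.57 to 8.01). *wfikkn1*, a secreted inhibitor that is also induced by ligands of the receptor in zebrafish, had 157, 406 and 251 counts (ratio 2.61, interval 2.17 to 3.16). The third is *nfe2l2b*, a Nrf2 paralog, with 34 and 71 counts (ratio 2.11, interval 1.38 to 3.27). The other 3 tested genes of the cyp1 family were not called, and *cyp1b1* had 295 counts against 242. Over 53 cytochrome P450 genes, 4 were higher and none lower at a median log2 ratio of 0.05, and beside *cyp1a* they were *cyp4t8*, *cyp27a7* and *cyp21a2*, with ratios of 1.72, 2.02 and 3.28. *cyp21a2*, a steroid hydroxylase, rested on 8 and 26 counts.

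Enzymes for aldehydes and ketones had 5 of 57 tested genes higher and none lower, at a median log2 ratio of 0.10. All 5 belong to the dhrs group of short-chain dehydrogenases, which oxidize or reduce retinoids, steroids and small carbonyls, and 13 of its 17 tested genes had ratios above 1. *dhrs13l1* had 160 counts non-treated, 405 after HNE and 345 after HDE (ratio 2.56, interval 2.12 to 3.09), and *dhrs12* had 235, 472 and 311 (ratio 2.03, interval 1.73 to 2.38). The ratios of the others were 1.87 for *dhrs9*, a retinol dehydrogenase, 1.78 for *dhrs13a.3* and 1.67 for *dhrs13a.1*. Only *dhrs13l1* and *dhrs12* were called at the assumed variation of 0.1.

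Of 32 tested Nrf2 targets outside the tabulated genes, 3 were higher (1 of them *nfe2l2b*), or 9.4% against 1.75% over all genes. None was lower, 23 had ratios above 1, and the median log2 ratio was 0.13. *ephx1*, a hydrolase of epoxides, had 144 counts non-treated, 229 after HNE and 183 after HDE (ratio 1.61, interval 1.298 to 1.99). *abcc1*, an exporter of glutathione conjugates, had 313, 504 and 376 (ratio 1.63, interval 1.41 to 1.88). Neither was called at the assumed variation of 0.1. *nqo1*, a quinone reductase, had 1911 counts non-treated and 2354 after HNE, and *gclc*, which starts glutathione synthesis, had 818 and 1013. Both had intervals above 1 but stayed below 1.5-fold at ratios of 1.24 and 1.25. Ratios were below 1 for 9 of the 32 genes. Among these, the abundant *tktb* had 8713 and 7896 counts (ratio 0.915) and *fth1a* had 10325 and 10108 (ratio 0.988). The list of glutathione transferases, sulfotransferases and glucuronosyltransferases also took in genes named nat with a number, such as *nat10* and *nat8l*. Of its 45 tested genes, 2 were higher and 1 lower. Among these, 1 higher and the lower gene have fractional counts, and the third was *ugt5g1* with 141 and 245 counts.

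**Figure D2:**
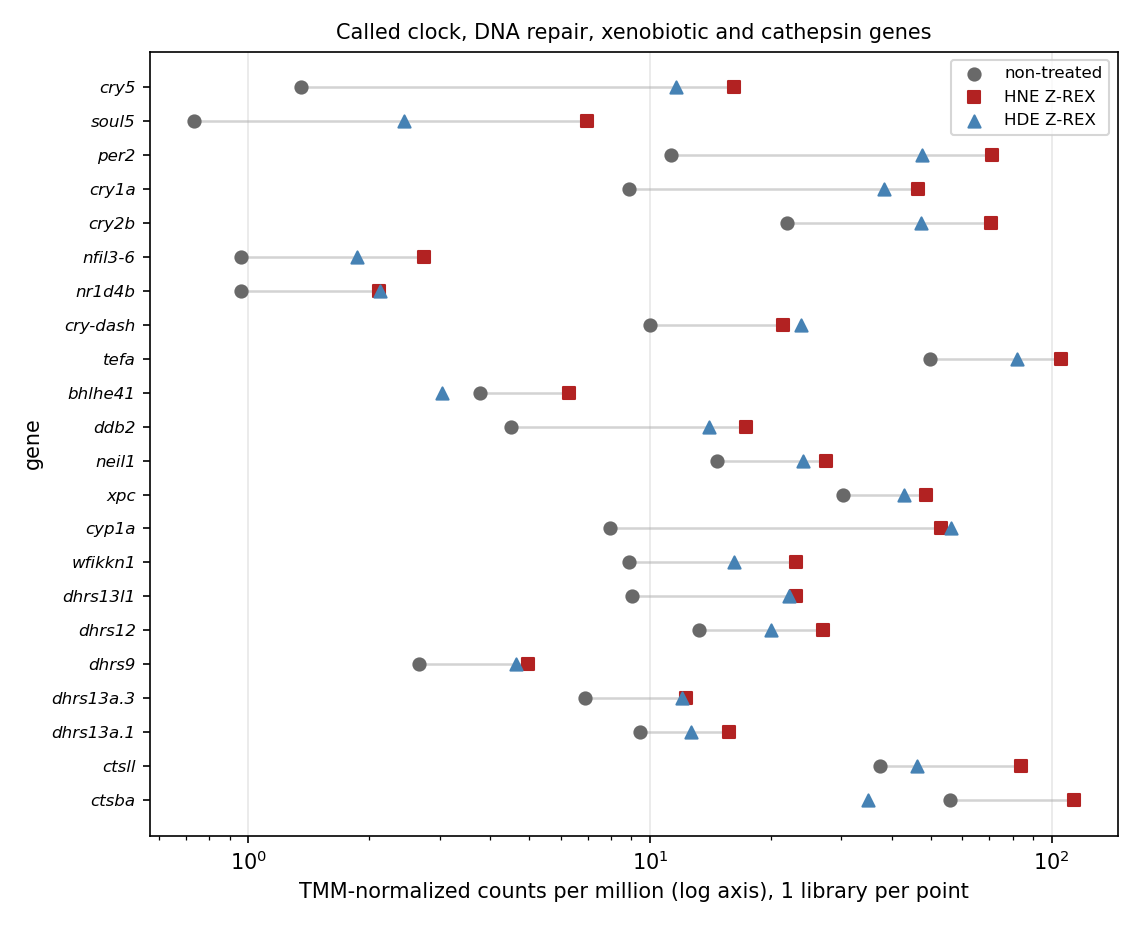
TMM-normalized counts (log axis, scaled to equal depth) of called clock, DNA repair, xenobiotic and cathepsin genes are shown, 1 point per library, with a line from non-treated (circle) to HNE Z-REX (square). HDE Z-REX (triangle) lies between the other libraries for most of these genes, at or beyond the HNE value for *cyp1a*, *nr1d4b* and *cry-dash*, and below non-treated for *bhlhe41* and *ctsba*.

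Lysosomal genes had 3 of 63 tested genes higher and none lower. *ctsba*, the cysteine protease cathepsin B, had 986 counts non-treated, 1988 after HNE and 542 after HDE (ratio 2.04, interval 1.89 to 2.199). *ctsll*, of the cathepsin L group, had 663, 1471 and 719 (ratio 2.24, interval 2.04 to 2.46). The HDE library was below the non-treated one for *ctsba* and between the others for *ctsll*. The most abundant member, *ctsla*, had 22728 and 30019 counts (ratio 1.33), below the threshold. Of 22 subunits of the proton pump that acidifies lysosomes, *atp6v0e1* alone was called, with 216 and 328 counts.

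The lens was the tissue with the most lower genes. Of 45 tested genes of its list, 24 were lower after HNE, which is 53.3%, none was higher, and 43 had ratios below 1. The median log2 ratio was −0.73, against −0.27 for HDE over the same non-treated library. At the assumed variation of 0.1, 14 genes were called. Crystallins are the structural proteins that fill lens fibre cells, and in fish the gamma-M family is the largest. All 20 tested genes of this family, named crygm2d with a number, had ratios below 1, and 19 were called lower. Their summed counts were 10789 non-treated, 5718 after HNE and 7806 after HDE, a summed ratio of 0.535. Reads of such near-identical copies can be divided among them: 9 of the 20 have fractional counts, and 10 of the genes called lower have whole ones.

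Among the whole-count copies, *crygm2d18* had 410 counts non-treated, 151 after HNE and 288 after HDE (ratio 0.372, interval 0.306 to 0.449). *crygm2d10*, at 176 FPKM non-treated against 52.8 for *crygm2d18*, had 1266, 665 and 941 counts (ratio 0.530, interval 0.482 to 0.583). FPKM is the authors' read count scaled to transcript length and library depth. The libraries stood in the order non-treated, HDE, HNE for both. Of the beta crystallins, all 11 tested had ratios below 1, but only *cryba1a*, on 22 and 5 counts, was called. *crybb1*, at 495 FPKM non-treated, had 6603 counts non-treated, 4927 after HNE and 5123 after HDE (ratio 0.753, interval 0.726 to 0.782). Whether the families differed was not tested.

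Other lens proteins were lower as well. *cryaa*, the alpha crystallin that also acts as a chaperone, had 120 counts non-treated, 30 after HNE and 71 after HDE (ratio 0.252, interval 0.163 to 0.379). *bfsp2*, a beaded filament protein of fibre cells, had 184, 100 and 125 counts (ratio 0.549, interval 0.426 to 0.704), and *grifin*, a lens galectin, had 66, 30 and 37. *lctla*, a lactase-like gene whose mouse relative is needed for the sutures of the lens, was not in the list but among the largest falls, with 182, 60 and 121 counts (ratio 0.333, interval 0.244 to 0.448). Its neighbour in name *lctlb* had 102, 63 and 81. In the eye outside the lens, none of 24 photoreceptor and retina genes and none of 10 pigment epithelium and pineal genes was called, at median log2 ratios of 0.13 and 0.28.

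**Figure D3:**
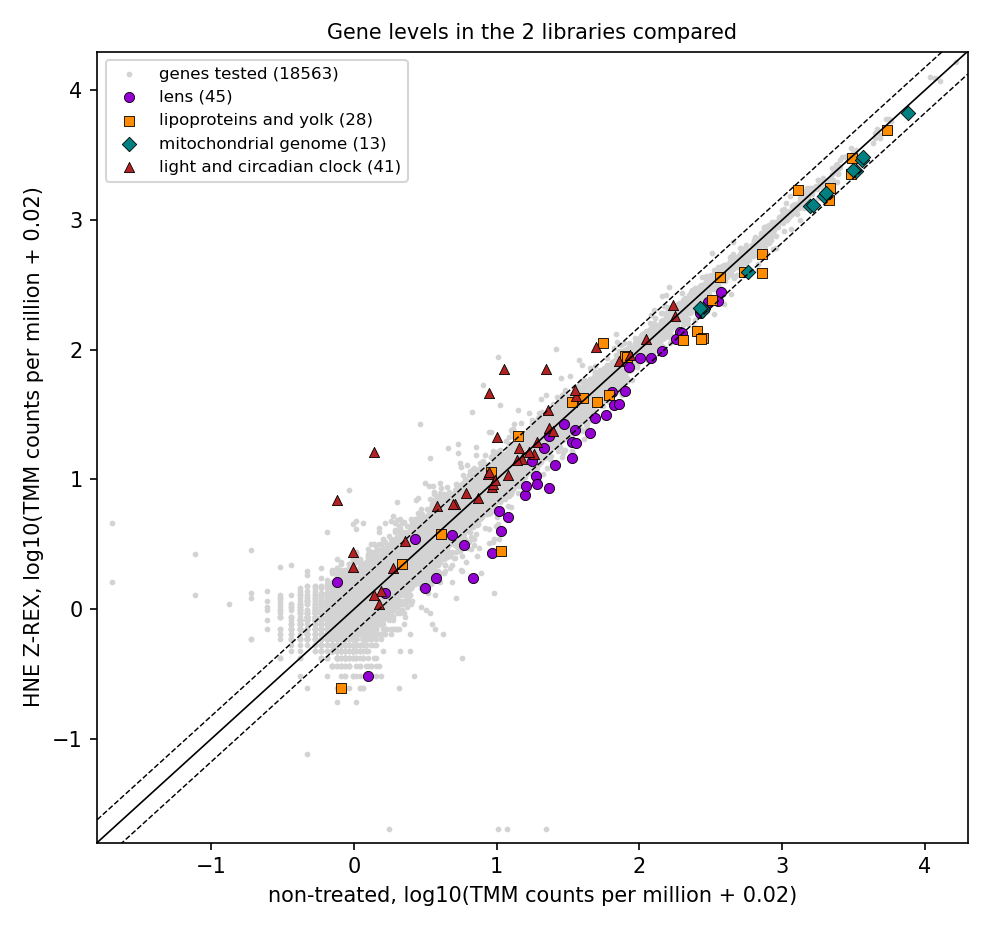
Normalized level of each tested gene in the non-treated library (x axis) and after HNE Z-REX (y axis), on log10 scales with a small constant added so that 0 can be drawn. The solid line marks equal levels and the dashed lines 1.5-fold; 43 of the 45 lens genes and all 13 mitochondrial genes lie below the solid line, and the called clock genes above the upper dashed line.

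Genes of lipid transport from yolk, liver and gut were lower at high counts. Of 28 tested, 7 were lower and 2 higher, at a median log2 ratio of −0.33. Of 16 tested genes whose symbols begin with apoa, apob, apoc or apoe, 15 had ratios below 1. Not all of these 16 are in the list. *apoea*, an apolipoprotein E gene, had 4753 counts non-treated, 2106 after HNE and 1958 after HDE (ratio 0.447, interval 0.425 to 0.471). *fabp2*, a fatty acid binding protein of gut and yolk syncytium, had 4482, 2460 and 2267 counts (ratio 0.554, interval 0.527 to 0.582). *apobb.2*, a gene for the core protein of these particles, had 3606, 2072 and 1674 (ratio 0.580, interval 0.549 to 0.613). In all 3 the HNE and HDE libraries were near each other and below the non-treated one. *apoa4b.3* went from 189 to 49 counts with 44 after HDE (ratio 0.262, interval 0.187 to 0.360), and its copies *apoa4b.1* and *apoa4b.2*, at ratios of 0.539 and 0.443, have fractional counts and are uncertain. The most abundant apolipoproteins differed by less, with *apoa1a* at 53815 and 39370 counts (ratio 0.739) and *apobb.1* at 95512 and 86096 (ratio 0.910). Called higher were *dgat2*, which completes triglycerides, at 248 and 379 counts, and *ctsba*.

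Plasma proteins of the liver gave no single direction, with 2 of 45 higher and 4 lower. *sepp1b*, one of a pair of selenoprotein P genes that carry selenium, had 765 counts non-treated and 471 after HNE (ratio 0.622), whereas the other, *sepp1a*, had 7978 and 11941 (ratio 1.51, interval 1.47 to 1.55). Their HDE counts were 559 and 7482. Haptoglobin *hp* (ENSDARG00000095807) had 409 and 264 counts and *itih3a* 313 and 203, while *agt*, the angiotensin precursor, rested on 5 and 21. The fourth lower gene, *cpn1*, had 209 counts non-treated and 0 in both other libraries, but its counts are fractional and could belong to an overlapping copy.

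Embryonic globins were lower together. All 8 tested globin genes had ratios below 1, between 0.561 and 0.851, and their summed ratio was 0.664 for HNE and 0.710 for HDE. The 4 that were called (*hbbe1.2*, *hbae1* and both genes named *hbbe1.1*) have fractional counts. The whole-count *hbae3*, the most abundant at 2125 FPKM non-treated, had 15385 counts non-treated, 10405 after HNE and 9994 after HDE (ratio 0.683, interval 0.666 to 0.700), just short of the threshold. *cahz*, the carbonic anhydrase of red cells, had 1077, 699 and 633 counts (ratio 0.655, interval 0.595 to 0.721) and was lower. None of 9 heme synthesis enzymes of the erythroid list was called, and the single higher gene of the 35 tested was *slc25a38a*, a mitochondrial carrier needed for heme synthesis, with 32 and 84 counts (ratio 2.65, interval 1.74 to 4.12).

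The 13 protein genes of the mitochondrial genome, which are cut from long precursor transcripts, all had lower normalized counts after HNE, although none reached 1.5-fold. Their ratios lay between 0.694 and 0.871, with a median log2 ratio of −0.35 and of −0.44 for HDE over non-treated. *mt-co1*, a cytochrome oxidase subunit, had 135737 counts non-treated, 117154 after HNE and 109360 after HDE. *mt-nd6* had 10181, 7001 and 6056. The nuclear genes of oxidative phosphorylation had 70 of 86 ratios below 1 at a median log2 ratio of −0.13, and the only one called was *ndufa9b*, higher on 10 and 36 counts.

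**Figure D4:**
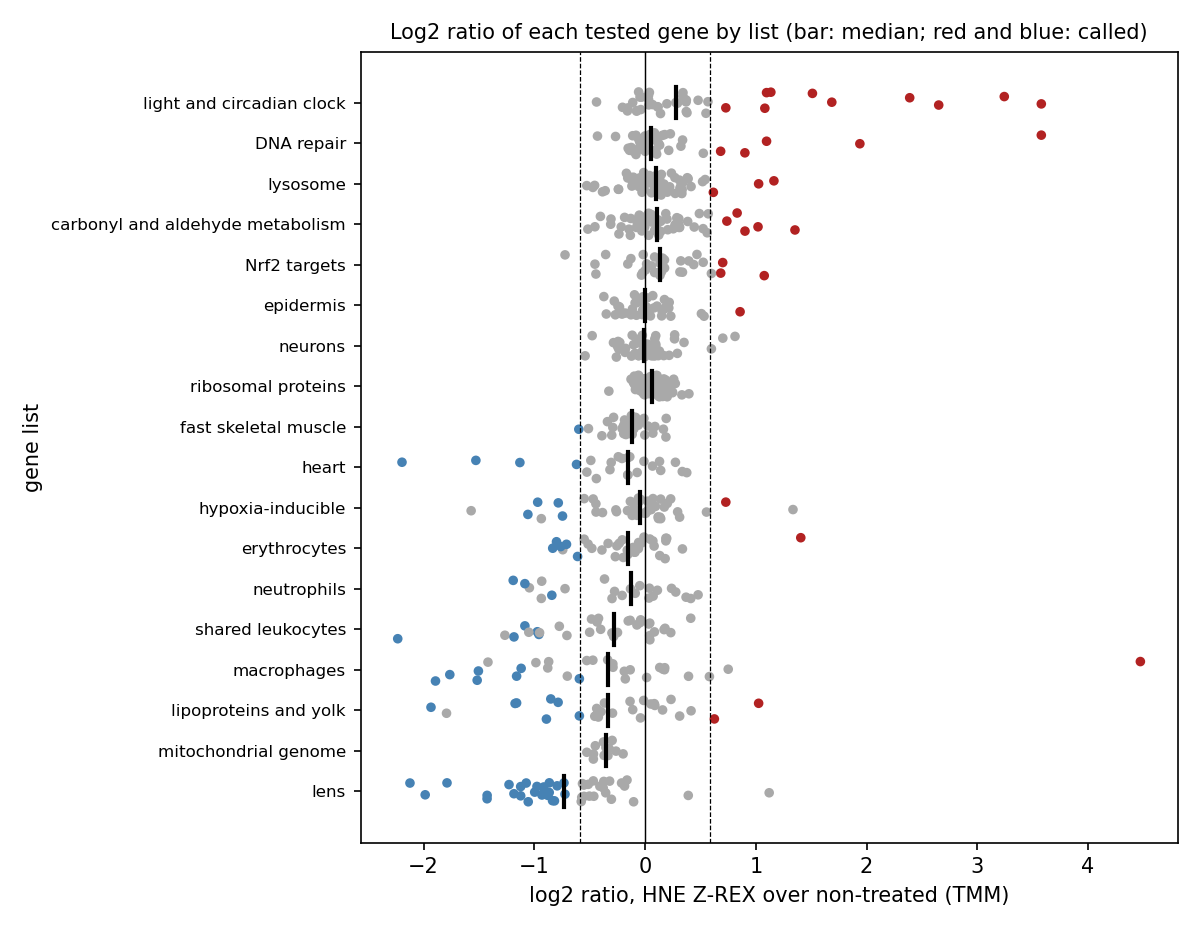
Log2 ratio of HNE Z-REX over non-treated for each tested gene of 18 lists, with called genes in red (higher) or blue (lower), the median of each list as a black bar and dashed lines at 1.5-fold. The lens median of −0.73 lies beyond the lower dashed line, and the medians of epidermis, neurons and ribosomal proteins lie near 0.

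In the heart list, 4 of 23 tested genes were lower and none higher, at a median log2 ratio of −0.16. Both natriuretic peptide genes, which the heart muscle expresses under load, were among them. *nppa* had 166 counts non-treated, 57 after HNE and 144 after HDE (ratio 0.347, interval 0.252 to 0.471), and *nppb* had 37, 8 and 46 (ratio 0.218, interval 0.0878 to 0.476). For both, the HNE library alone was low. *acta2*, the smooth muscle actin that the embryonic heart also uses, had 283, 128 and 181 counts (ratio 0.457, interval 0.368 to 0.565), and *vmhcl*, a ventricular myosin gene, had 608, 392 and 562 (ratio 0.651, interval 0.572 to 0.740). *myl7*, the cardiac myosin light chain, had 596 and 410 counts (ratio 0.695) and was not called. The actin gene *actc1a* had 11853 and 11654 counts (ratio 0.993), and *atp2a2b*, a calcium pump gene, had 3425 and 3713 (ratio 1.095). Of the heart list, 17 genes had ratios below 1 and 6 above, and its summed ratio was 0.991.

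In skeletal muscle only single genes were called. Ratios were below 1 for 30 of 36 fast and 11 of 13 slow muscle genes, at median log2 ratios of −0.12 and −0.10. Of 20 myogenic regulators, 13 had ratios above 1. *tcap*, which encodes the Z-disc protein telethonin, had 168 counts non-treated, 23 after HNE and 339 after HDE (ratio 0.138, interval 0.0853 to 0.214), with the HDE library on the other side of the non-treated one. It was the only lower gene of 31 for muscle maintenance, and *klhl40b*, which protects thin filament proteins, the only higher one, with 312 and 474 counts. In fast muscle, *pvalb3*, a parvalbumin that buffers calcium, was the only call among 36 genes, at 980 counts non-treated, 641 after HNE and 705 after HDE (ratio 0.660). In slow muscle *tnni1b*, a troponin I gene, was lower at 324 and 191 counts, and *smyhc2* was higher at 49 and 126, on fractional counts. None of 20 myogenic regulators was called. *ckmt1*, a mitochondrial creatine kinase gene outside the lists, had 4388 counts non-treated, 2572 after HNE and 2180 after HDE (ratio 0.592, interval 0.563 to 0.621). *fhl1a*, a LIM-domain gene of muscle that no list holds, had 65, 22 and 47 counts (ratio 0.342, interval 0.201 to 0.562).

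Leukocyte genes outside the tabulated ones were lower in part. Of 29 macrophage genes, 7 were lower and 1 higher at a median log2 ratio of −0.34. Of 23 neutrophil genes, 3 were lower and none higher at −0.13, and of 33 genes shared by leukocytes, 5 were lower and none higher at −0.28. In each of these lists, 9 genes had ratios above 1. At the assumed variation of 0.1, 4 macrophage genes, no neutrophil gene and 1 shared gene were called. The macrophage genes called there included *cd74a*, which was higher, and *apoea*, which the lipoprotein list also holds. The 3 medians depended on the setting, reaching −0.27, −0.0065 and −0.04 at their highest. The HDE medians over the same non-treated library were −0.07, 0.07 and 0.00. Most of these genes had few counts. *spi1b*, the transcription factor Pu.1 of myeloid cells, had 68 counts non-treated, 31 after HNE and 51 after HDE (ratio 0.460, interval 0.291 to 0.714), and *irf8*, required for macrophage fate, had 24, 7 and 20 (ratio 0.294, interval 0.107 to 0.704). Both kept the order non-treated, HDE, HNE. The 3 most abundant genes of the neutrophil list were not called and went both ways. Whether their RNA came from neutrophils was not tested. *s100a10b* had 3664 counts non-treated and 2950 after HNE (ratio 0.813). *nccrp1* had 693 and 810 (ratio 1.18, interval 1.06 to 1.31), and *mych* had 626 and 864 (ratio 1.39, interval 1.26 to 1.55).

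*cybb*, the catalytic subunit of the phagocyte oxidase, had 83, 36 and 55 counts (ratio 0.438, interval 0.288 to 0.655). Its FPKM values were 1.38, 0.92 and 1.40, a fall of less than 1.5-fold after HNE. *npsn*, a protease of neutrophil granules, had 248, 137 and 228 (ratio 0.558, interval 0.449 to 0.690). The phosphatase gene *ptpn6*, which restrains leukocyte signalling, had 117, 51 and 83 (ratio 0.440, interval 0.310 to 0.616). Of these 3, *ptpn6* alone was called at the assumed variation of 0.1. The actin-bundling *lcp1* had 113 and 57 counts, the integrin gene *itgb2* 53 and 27, and the adaptor gene *grap2b* 19 and 4. *fcer1gl*, called in both the neutrophil and the shared list, had 60 and 28. The apolipoprotein genes *apoea* and *apoeb*, called in the macrophage list, stand in the lipoprotein list too. *si:dkey-5n18.1* of the macrophage list, also among the largest falls, had 60, 16 and 40 (ratio 0.269, interval 0.145 to 0.473). The only called gene of these lists that was higher was *cd74a*, the invariant chain of antigen presentation. It had 1 count non-treated, 22 after HNE and 15 after HDE (ratio 22.2, interval 3.59 to 917).

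Of the 12 largest falls by the rule, 8 are in no list, and 2 of these 8, *lctla* and *fhl1a*, are described above. *CABZ01064972.2* had 74 counts non-treated, 11 after HNE and 46 after HDE (ratio 0.150, interval 0.0718 to 0.284). *FUT9 (10 of 14)*, a fucosyltransferase gene, had 65, 12 and 18 (ratio 0.186), and *entpd2a.1*, of a family that cleaves extracellular nucleotides, had 62, 13 and 44 (ratio 0.212). After scaling, these 3 were lowest after HNE and highest non-treated. *si:dkey-202l22.6* had 137, 33 and 168 counts (ratio 0.243, interval 0.161 to 0.358), *si:dkey-117j14.6* 56, 17 and 113 (ratio 0.306) and *si:ch211-62a1.1* 86, 28 and 75 (ratio 0.329). After scaling, the HDE library was above the non-treated one for *si:dkey-202l22.6* and *si:dkey-117j14.6* and near it for *si:ch211-62a1.1*.

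Hypoxia-inducible genes were not lower as a list, with a median log2 ratio of −0.05, but 4 of 44 were called lower and 1 higher. At the assumed variation of 0.1, only *egln3* was called. *egln3*, an oxygen sensor that is itself induced by low oxygen, had 286 counts non-treated, 136 after HNE and 943 after HDE (ratio 0.480, interval 0.389 to 0.591). *ankrd37* had 178, 90 and 382 (ratio 0.510, interval 0.392 to 0.661), and *p4ha1b*, a collagen prolyl hydroxylase, had 718, 413 and 1554 (ratio 0.581, interval 0.513 to 0.656). In these 3 genes the HNE library was the lowest and the HDE library the highest, with the non-treated one between. *angptl4*, an inhibitor of lipoprotein lipase, had 1424, 841 and 1411 (ratio 0.596, interval 0.547 to 0.650), and the higher gene was *bhlhe41* of the clock list. None of the 33 glycolysis genes in the list was called, at a median log2 ratio of −0.09. The list misses *PKLR*, a pyruvate kinase gene written in capitals, which was called higher and is given in the closing section. *pck1*, of gluconeogenesis, had 264 counts non-treated, 172 after HNE and 640 after HDE, *pdk4*, which holds pyruvate back from oxidation, had 336, 203 and 286, and *g6pca.1*, the last enzyme of glucose release, was higher at 50 and 84.

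Stress pathways held few called genes. In the heat-shock list 1 of 42 was lower, *hspb9*, a small heat-shock protein, with 376 counts non-treated, 193 after HNE and 662 after HDE (ratio 0.518, interval 0.433 to 0.618). None of 36 genes of endoplasmic reticulum stress and none of 13 of the chaperonin was called. Of 34 genes of the integrated stress response, *nupr1*, a small nuclear stress protein, was lower at 725, 362 and 540 counts (ratio 0.504, interval 0.443 to 0.573). Among 47 apoptosis genes the only call was *diabloa*, whose protein releases caspases from their inhibitors, lower at 509, 260 and 359 counts (ratio 0.516, interval 0.442 to 0.600). None of 28 genes of actin disassembly, the group that includes Wdr1 and cofilin, was called, at a median log2 ratio of −0.01. Of 28 genes for Keap1 and its partner proteins, 2 were higher and none lower, at a median log2 ratio of 0.06. They were *nfe2l2b* and *keap1a*, a zebrafish Keap1 gene. *keap1a* had 178 counts non-treated, 285 after HNE and 213 after HDE (ratio 1.62). Neither gene was called at the assumed variation of 0.1. Of 48 immediate early genes *nr4a2b* was lower at 102 and 52 counts, and of 37 inflammation genes the chemokine gene *ccl25b* at 120 and 75.

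**Figure D5:**
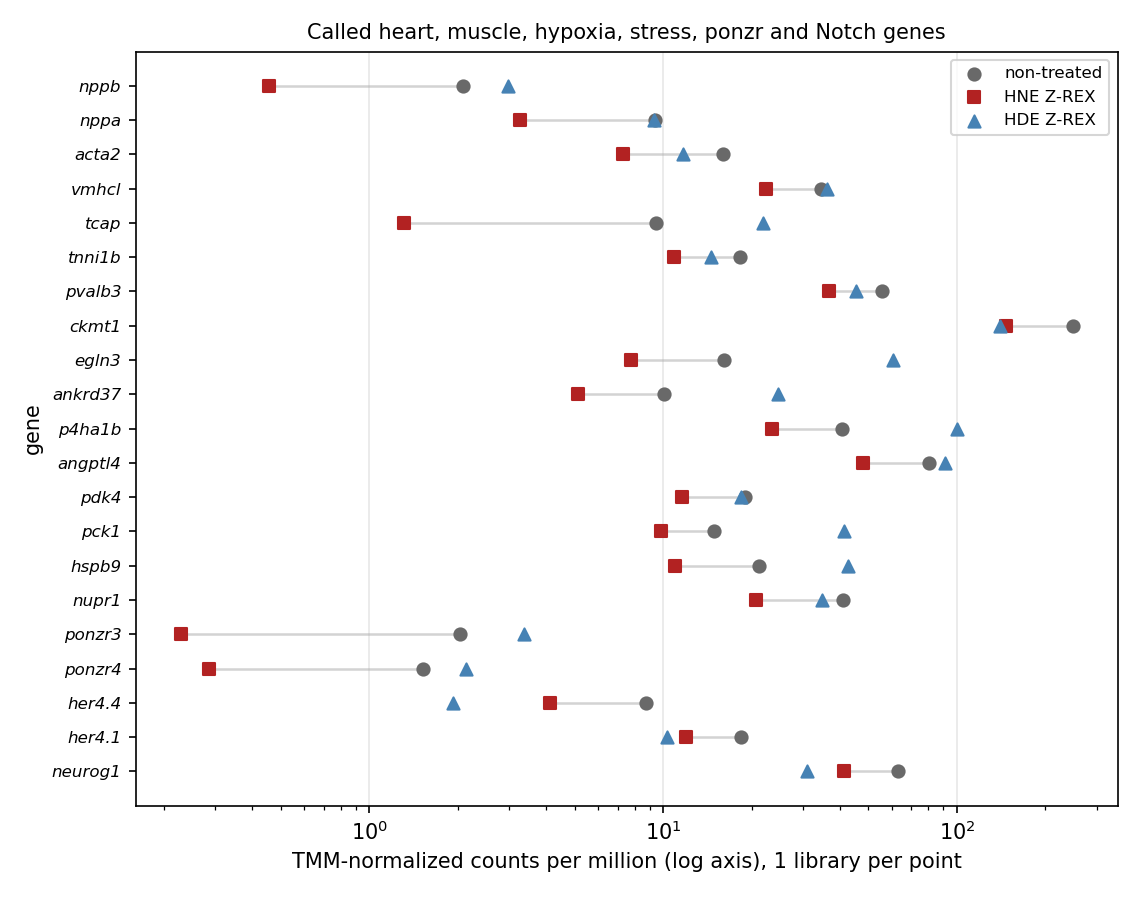
TMM-normalized counts (log axis, scaled to equal depth) of called heart, muscle, hypoxia, metabolic, stress, ponzr and Notch genes are shown, 1 point per library, with a line from non-treated (circle) to HNE Z-REX (square). HDE Z-REX (triangle) lies above the non-treated value for *nppb*, *tcap*, *egln3*, *ankrd37*, *p4ha1b*, *angptl4*, *pck1*, *hspb9*, *ponzr3*, *ponzr4* and *vmhcl*, and below the HNE value for *ckmt1*, *her4.4*, *her4.1* and *neurog1*.

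Of 34 neural progenitor genes 4 were lower and none higher, and of 44 Notch genes 3 were lower and none higher. *her4.4*, a target of Notch that keeps progenitors dividing, had 155 counts non-treated, 72 after HNE and 30 after HDE (ratio 0.469, interval 0.350 to 0.624). *her4.1* had 327, 210 and 160 (ratio 0.648, interval 0.543 to 0.773), and the third, *her4.3*, has fractional counts. *neurog1*, which commits progenitors to the neuronal fate, had 1111, 723 and 478 (ratio 0.657, interval 0.597 to 0.722). After scaling, *her4.4*, *her4.1* and *neurog1* were highest non-treated and lowest after HDE. None of 50 neuronal genes was called, at a median log2 ratio of −0.01. Among lists of signalling, Wnt and Bmp and Tgf-beta each had 2 of 49 higher, or 4.1% against 1.75% over all genes. Those of Wnt were *wnt3a*, a ligand, at 37 and 74 counts and *tcf7* at 67 and 107. Those of Bmp and Tgf-beta were *fstb*, a follistatin, at 102 and 190 and *tgfb2* at 27 and 55. Fgf, Hedgehog and retinoic acid had none of 25, 24 and 34.

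Kidney and skin gave single genes. *ponzr3* and *ponzr4*, of the plac8-related family that includes a gene needed in the zebrafish pronephros, had 36 counts non-treated, 4 after HNE and 52 after HDE (ratio 0.112, interval 0.0290 to 0.313) and 27, 5 and 33 (ratio 0.187, interval 0.0562 to 0.493). They were the only calls among 7 genes of the family. In the epidermis, 1 of 41 genes was called: *epcam*, an adhesion protein of epithelia, higher at 2544 counts non-treated, 4567 after HNE and 3792 after HDE (ratio 1.81, interval 1.73 to 1.90). None of 14 keratins was called. Both called fin genes were lower, *and1* at 5293 and 3492 counts and *and3* at 1282 and 835, and both encode actinodins, the fibre proteins of the fin fold.

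Of 53 genes for fibrillar and basement membrane matrix, 2 were lower and 1 higher. *fn1b*, a fibronectin, had 6569 counts non-treated, 4169 after HNE and 9670 after HDE (ratio 0.641, interval 0.616 to 0.666), with the HDE library highest. In the hatching gland *he2*, a hatching enzyme, was lower at 100, 34 and 20 counts (ratio 0.343, interval 0.225 to 0.511). Of 29 notochord and cartilage genes *acanb*, the cartilage proteoglycan aggrecan, was higher on 8 and 34 counts and *entpd5a* lower on 61 and 30.

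Cholesterol synthesis had 2 of 28 higher and 2 lower. *srebf1*, a transcription factor for lipid synthesis, had 98 counts non-treated, 236 after HNE and 206 after HDE (ratio 2.43, interval 1.91 to 3.11), while *hmgcra*, of the rate-limiting step, had 161 and 105. The other calls were *msmo1*, higher at 46 and 76, and *hsd17b7*, lower at 317 and 193. Neither ribosomal proteins (81 tested), translation factors (75), DNA replication and cell cycle (92), histones (14), melanophores (14) nor xanthophores and iridophores (26) had any called gene.

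The other lists had small numbers of called genes, but in some the share was above that over all genes (1.75% higher and 1.62% lower). The share called in either direction was 17.9% in the protocadherin cluster and 10.7% in ionocytes. It was 9.1% in the pronephros and 8.3% in the neural crest. Over all genes, 624 of 18563 were called in either direction, and the endothelium, at 2.4%, lay below that share. In the neural crest *ednrab*, an endothelin receptor of pigment cell precursors, was higher at 160 counts non-treated, 260 after HNE and 153 after HDE (ratio 1.64, interval 1.34 to 2.01), and *foxd3*, at 389 and 0 counts, has fractional counts and is uncertain. Of 41 endothelial genes *sele*, a selectin that captures leukocytes, was lower at 120 and 60 counts (ratio 0.505, interval 0.364 to 0.694). Among 28 ionocyte genes, which serve ion uptake by the skin, *kcnj1b* was higher on 36 and 77 counts, and *trpv6*, the calcium channel, was lower on 92 and 58, as was *cahz*. In the pronephros *slc26a1*, an anion exchanger, was higher at 243 and 374 counts, and *ponzr3* and *ponzr4* were lower at 36 and 4 and at 27 and 5. Single calls in other lists were *ddx21*, a helicase of ribosome biogenesis, higher at 2132 and 3227, *psme2*, an activator of the proteasome, higher at 14 and 40, *b2m*, the light chain of class I antigen presentation, higher at 45 and 76, and *aco1*, which senses iron, higher at 185 and 297. The lower single calls were *tax1bp1a*, an autophagy receptor, at 163 and 100 counts and *cldnk*, a claudin of myelin, at 43 and 20. The hox cluster had 2 lower genes of 50, *hoxc12b* at 104 and 66 counts and *hoxa9a* (the entry ENSDARG00000100358) at 43 and 11, the latter with fractional counts. The protocadherin cluster had 2 higher and 3 lower genes of 28, but 23 of the 28 have fractional counts. Blood stem cells and thrombocytes (15 tested), exocrine pancreas (5), endocrine pancreas and pituitary (23), otic vesicle and lateral line (24) and germ cells (8) had none.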

How the data were processed

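RNA of whole embryos was sequenced in 3 libraries, 1 per condition. Per the paper's methods, poly(A) RNA was made into directional libraries, and the authors trimmed single-end reads with cutadapt 1.8 and mapped them to GRCz10 with tophat 2.1. The deposited expected counts are reads per gene that the authors did not scale between libraries, and the tool that counted them is not given in the sources used here. Some reads were divided between genes: 913 of 31950 genes, 587 of them tested, have fractional values, which were rounded to whole numbers and are named as uncertain. The deposited FPKM values were made by the authors with Cufflinks 2.2. Whether the counting used strand is not stated, so reads of overlapping genes cannot be told apart. No genome of this build was used here, and no coordinates or sequences are printed.

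Counts were scaled by TMM (edgeR 4.0.16, R 4.3.3). Genes whose mean reached 10 counts were tested with a two-sided exact binomial test conditional on the pair's total (scipy 1.17.1), with Benjamini-Hochberg adjustment over all 18563, and called at an adjusted p under 0.05 and a 1.5-fold change. Intervals are exact 95% Clopper-Pearson intervals, and intervals cover counting error only. The procedure was tested on simulated counts that held counting error only. That test cannot show how often a spread between embryo samples would give calls. Alternatives were DESeq2 1.42.0 size factors, total counts, no filter, a mean of at least 50 counts, a 2-fold threshold, whole counts only, FPKM with a pseudocount of 0.1 or 1, and edgeR's exact test at an assumed biological coefficient of variation of 0.1 or 0.2.

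The gene lists and the rule for named genes were chosen with earlier results of these data known. By the rule, the text names the 12 largest rises and falls among called genes with whole counts and 50 or more counts in the higher library. Of each list, the rule selects the 3 most abundant and up to 4 most changed called members. The 10 genes the study tabulated were left out. Many of the selected list members, some of them called, are not named and are given only by their list's counts. Named outside the rule, after their values were seen, were *apoa4b.1*, *apobb.2*, *bfsp2*, *bhlhe41*, *ckmt1*, *cry2b*, *crygm2d10*, *cyp1b1*, *dgat2*, *dhrs13a.1*, *gclc*, *grifin*, *itgb2*, *itih3a*, *lctlb*, *mt-nd6*, *myl7*, *nfil3-6*, *nqo1*, *nr1d4b*, *per1b*, *per3*, *sepp1a*, *spi1b* and *tefa*, and the genes of the closing section. List symbols were matched in lower case, so genes that the files write in capitals are in no list. Figures were drawn with matplotlib 3.10.9.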

Additional observations from a re-analysis of the deposited data

How the results depend on the processing

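The numbers of genes called higher and lower, 324 and 300, stayed within 1.5 times under DESeq2 size factors, total counts, no filter, a mean of at least 50 counts, whole counts only and FPKM with a pseudocount of 1. They were 76 and 73 when a biological coefficient of variation of 0.1 was assumed, 22 and 12 with 0.2, 152 and 116 at 2-fold, and 933 and 786 on FPKM with a pseudocount of 0.1, which has no counting test and lets low values pass. These settings were compared for 169 of the named genes, or 137 with a mean of at least 50 counts and 155 on whole counts only. None changed direction, but only the other scalings and FPKM could alter a ratio. Under the filters, the 2-fold threshold and the assumed variations the ratio is the same by construction. Genes that no longer passed numbered 79 at the assumed variation of 0.1, 127 at 0.2 and 75 at 2-fold. On FPKM with a pseudocount of 0.1 and 1 they numbered 8 and 33, and *cybb*, *vmhcl* and *angptl4* fell by less than 1.5-fold at both. Without a filter, the genes that no longer passed were 5 (*cldnk*, *cyp27a7*, *msmo1*, *nr1d4b* and *trpv6*), and with total counts 3 (*apoeb*, *and1* and *trpv6*). The median log2 ratio of the lipoproteins and yolk list was −0.11 without a filter, −0.22 on whole counts only and −0.22 on FPKM with a pseudocount of 1. The medians of the other 77 lists moved by less than the typical counting interval of single genes in them, which is wide at low counts. Over all settings the shared leukocyte median lay between −0.29 and −0.04, and the neutrophil median between −0.14 and −0.0065. Some medians changed sign, such as those of the ponzr family (−0.17 to 0.07), germ cells (−0.14 to 0.07) and gut (−0.11 to 0.11). No paired analysis was possible because each condition has 1 library.

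With 1 library per condition, no difference is known to exceed the spread between batches of embryos, and small differences at high counts pass a counting test easily. Genes under about 50 counts have wide intervals. The non-treated library is shared with the HDE values, so any deviation of that library appears in both. Whether light, the precursor, handling or developmental stage had a part was not tested.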

Other observations

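Among the called genes that no list holds, those below were chosen after their values were seen. *mat2aa*, which makes the methyl donor S-adenosylmethionine, had 5719 counts non-treated, 9818 after HNE and 4073 after HDE (ratio 1.73, interval 1.68 to 1.79), and *mat2ab*, its paralog, had 258, 394 and 208 (ratio 1.54, interval 1.31 to 1.81). The remaining gene of that name, *mat2al*, was not called, at 195, 166 and 149 counts (ratio 0.859). *slc1a4*, a carrier of small neutral amino acids, had 1233, 2004 and 1005 counts (ratio 1.64, interval 1.53 to 1.76), and *slc38a7*, a glutamine carrier, had 436, 670 and 359 (ratio 1.55, interval 1.37 to 1.75). In *mat2aa*, *mat2ab*, *slc1a4* and *slc38a7* the HNE library was the highest and the HDE library the lowest after scaling. At an assumed biological coefficient of variation of 0.1, *mat2aa* was called and the other 3 were not.

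Of genes written in capitals, *PKLR*, a pyruvate kinase, had 575 counts non-treated, 1094 after HNE and 697 after HDE (ratio 1.92, interval 1.73 to 2.13), and *MLXIPL*, the transcription factor that answers to carbohydrate and drives pyruvate kinase, had 35, 85 and 46 (ratio 2.45, interval 1.64 to 3.75). *ptgdsb*, a prostaglandin D synthase, had 460, 1784 and 1291 counts (ratio 3.92, interval 3.53 to 4.35). *hebp2*, a heme-binding gene of the SOUL family, had 499, 1065 and 640 (ratio 2.15, interval 1.94 to 2.401). Lower were *alas1*, which starts heme synthesis outside red cells, at 1407, 883 and 1105 counts (ratio 0.634, interval 0.582 to 0.690), and *acsl5*, which activates fatty acids, at 528, 296 and 327 (ratio 0.566, interval 0.489 to 0.654).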
